A study of Homo sapiens with 18 samples.

Results

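The replication-dependent histone genes encode the linker histone H1 and the core histones H2A, H2B, H3 and H4 that package newly made DNA. They were taken as every gene whose current HGNC symbol is H1-1 to H1-6 or begins with H2AC, H2BC, H3C or H4C and a number. In all, 80 of the 35168 genes in the deposited tables met this rule, of 83 such genes in the annotation, and H2AC18, H2AC19 and H3C15 were not analysed here. By class these were 6 H1, 20 H2A, 24 H2B, 14 H3 and 16 H4 genes, pseudogenes included. On GRCh38, 65 lie in the cluster on chromosome 6p (chr6:25723397-27893891) and 13 on chromosome 1q, 10 of them proximal (chr1:149782689-149887965) and 3 distal (chr1:228434777-228464594). H4C16 on chromosome 12 and H2BC12L on chromosome 21 stand alone.

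Histone mRNAs of this kind are made in bulk during S phase, when DNA is copied, and are removed when replication ends. Their genes lack introns as a rule, and most of the mRNAs end not in a poly(A) tail but in a short stem-loop that SLBP, the stem-loop binding protein, holds through processing, translation and decay. The coactivator NPAT drives their transcription, the U7 snRNP cuts the pre-mRNA, and short 3' tails of U added to the mRNA start its decay. USB1, the enzyme lost in poikiloderma with neutropenia, shortens RNAs from their 3' end, taking U or A off small RNAs such as the U6 snRNA.

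RNA was sequenced from H1 cells, an established human embryonic stem cell (hESC) line, that carried a loss-of-function deletion of an A in the USB1 coding sequence (USB1 mutant), against the unedited line (WT). Both were taken along a hematopoietic differentiation as hESCs (D0), hematopoietic progenitors (D16) and mature blood cells (D30), with 3 libraries in each of the 6 groups. The mutation was made with CRISPR/Cas9 in picked colonies, and the number of clones behind the libraries is not given in the sources used here. The sources also do not say that the 3 libraries of a group came from separate cultures, so the p-values measure the spread between these libraries only, which may be technical. Total RNA was depleted of rRNA rather than selected on poly(A), so that mRNAs without a tail were kept.

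Libraries held 4125125 to 19368927 counts. Levels are given as CPM, counts scaled to a common library total. USB1 RNA had 53.7, 45.2 and 55.4 CPM in USB1 mutant D16 libraries and 58.8, 48.8 and 57.3 CPM in WT D16 libraries, and it was not called at any day (adjusted p of 0.623, 0.668 and 0.432 at D0, D16 and D30, edgeR). A deletion of 1 base need not lower the RNA, so this does not check the genotype labels. The hESC markers POU5F1, NANOG and SOX2 were high at D0 only, and PTPRC (CD45), near 0 at D0, averaged 489 CPM in USB1 mutant and 706.5 CPM in WT D16 libraries. No gene of the hESC list was called between genotypes at D0.

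The stem-loop that defines these mRNAs was looked for as the letters GGNNNTTTNNAGNNCC, on the sense strand of the last 120 bases of each annotated transcript. It was found in 65 of 70 protein-coding histone genes of the rule (92.9%, the genes not analysed here included) and in 81 of 19702 protein-coding genes in all (0.411%). The form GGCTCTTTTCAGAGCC occurred in 39 members, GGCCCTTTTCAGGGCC in 10, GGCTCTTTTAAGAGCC in 9 and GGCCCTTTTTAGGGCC in 4. The transcript ends below belong to genes whose values are described further on. Capitals mark the stem-loop, which differs between classes mainly in the stem. They are read 5' to 3' from the transcript's strand, in the order chr6:26234212-26234239 (minus strand), chr6:26020925-26020954 (plus), chr6:26022023-26022050 (plus), chr12:14770720-14770746 (minus), chr1:228457364-228457391 (minus), chr1:149840687-149840714 (minus) and chr1:149833025-149833052 (plus).
H1-3: tttaaacGGCTCTTTTCAGAGCCaccca
H3C1: aagcaaaGGCTCTTTTCAGAGCCaccacct
H4C1: aaccaaaGGCCCTTTTCAGGGCCgccca
H4C16: tccaaaaGGCCCTTTTCAGGGCCccca
H2AC25: acataaaGGCTCTTTTCAGAGCCaccta
H3C14: tccaaaaGGCTCTTTTCAGAGCCaccca
H4C14: tcccaaaGGCCCTTTTTAGGGCCgacca

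The letters were not found in that window of H3C6, H2BC10, H2BC21, H4C13 or H2BC12L. At D16 they were present in 29 of the 32 members called higher in USB1 mutant cells and in 26 of the 29 that were tested and not called.

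Upstream sequences were read from RefSeq on GRCh38.p14, 250 bases before the start, on both strands. CCAAT was present in 58 of 68 promoters listed for members, against 32.01% of all 35116 promoters. TATAAA was present in 66.18% against 10.72%, and the octamer ATTTGCAT in 39.71% against 1.632%. The octamer sat mostly in promoters of H2A (11 of 16) and H2B (15 of 20), and CCAAT in 3 of 13 H4 promoters. These are counts of promoters, not genes, since H2BC5, H2BC12, H3C4 and H3C6 are listed more than once. H2AC18, H2AC19 and H3C15, not analysed here, are included. A listed H3C4 promoter is the same stretch as that of H2AC7. With the first listed promoter of each gene, 25 of 28 members called higher at D16 held CCAAT, 19 TATAAA and 11 the octamer. Among those tested and not called, 20, 14 and 12 of 25 did. The 110 bases before the start are shown for the H3 gene with the widest genotype difference at D16 (H3C6, chr6:26225025-26225134, plus strand), another called H3 gene of the 6p cluster (H3C1, chr6:26020341-26020450, plus) and an H3 gene of 1q (H3C14, chr1:149841209-149841318, minus), with these motifs in capitals, and ATTGG is CCAAT read from the other strand. H3C6 has a further listed start, after chr6:26224068-26224177 (plus). Its 250 bases held TATAAA, and those of the H3C6 start shown did not.
H3C6: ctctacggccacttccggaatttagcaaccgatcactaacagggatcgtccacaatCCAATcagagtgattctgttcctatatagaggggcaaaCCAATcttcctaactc
H3C1: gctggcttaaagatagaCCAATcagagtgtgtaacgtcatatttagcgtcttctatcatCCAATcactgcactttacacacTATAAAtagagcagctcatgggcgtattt
H3C14: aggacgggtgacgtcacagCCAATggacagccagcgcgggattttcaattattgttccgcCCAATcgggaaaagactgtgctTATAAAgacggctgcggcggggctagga

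Per length, H4C11 was the most abundant member, at 5173 TPM (counts divided by transcript length and scaled to a common total) averaged over the 18 libraries. In this mean it was followed by H2BC12 at 2511, H4C4 at 2225, H2AC20 at 1830, H4C6 at 1823, H1-5 at 1720 and H3C2 at 1667 TPM. H4C11 was first in each of the 6 groups, and the order below it differed between groups: at D0, H4C6 (3057 TPM) and H4C4 (2381) stood above H2BC12 (1858) in USB1 mutant, and H4C4 (2487) above H2BC12 (1747) in WT. These transcripts are short and their effective length drifted between libraries, from 106.5 to 149.0 bases for H4C11. Genotypes and days were compared on CPM, which does not take that length into account. With transcript lengths as offsets, H1-1, H1-3 and H2BC27P lost their genotype calls at D0, and H2BC19P was newly called. H2BC13 and H4C2 lost theirs at D16, and H3C6, H3C8 and H4C6 lost theirs at D30. Members shared 31-base stretches with each other to very different degrees, which bears on how reads could be assigned. The share of a gene's stretches found in another member was 98.6% for H4C14, 99.2% for H3C14 and 92.5% for H4C11, and these are uncertain as single genes. Genes outside the rule were not searched. So are H2BC19P (95.3%), H2BC20P (80.2%), H4C15 (100%), H2AC17 (69.2%), H2AC14 (67.7%), H2AC13 (65.0%) and H2BC12 (71.0%). The share was 35.6% for H2AC20, mostly with H2AC19, and 42.4% for H3C13, with H3C15. H2AC19 and H3C15 were not analysed here, so H2AC20 and H3C13 are also less certain. The share was 0.72% for H3C6, 0.538% for H4C1, 0.279% for H4C16, 1.92% for H2AC25 and 0 for H1-3 and H3C1. Exons of H2AC17 overlap H3C12 on the same strand, so strand cannot tell their reads apart there. The kit kept strand, but the use of strand in quantification is not stated.

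The members together made up 1.95%, 2.07% and 1.38% of counts in USB1 mutant D16 libraries, against 0.959%, 1.16% and 1.39% in WT D16 libraries. At D0 the share was 0.704%, 0.721% and 0.781% in USB1 mutant and 0.801%, 0.586% and 0.657% in WT, and at D30 0.344%, 0.275% and 0.258% in USB1 mutant and 0.341%, 0.392% and 0.322% in WT. In both genotypes, then, the share was highest in progenitors and lowest in mature blood cells. At D16 USB1 mutant replicate 3 had the lowest share of its group and WT replicate 3 the highest of its own, and there the genotypes overlapped.

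**Figure D1:**
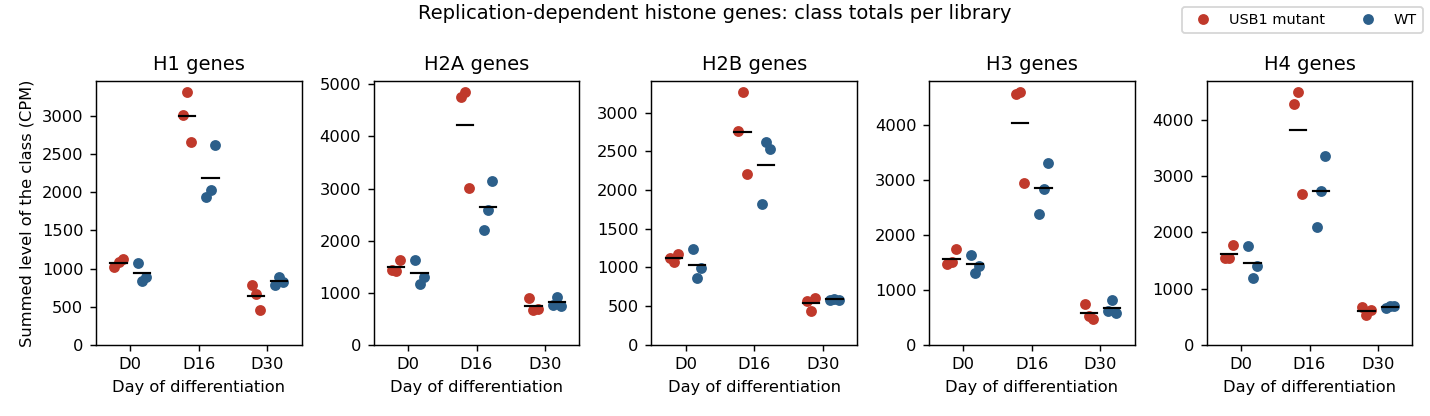
Summed CPM of each histone class in every library (points) with group means, by day, USB1 mutant left of WT. H1 was the class whose D16 libraries did not overlap, at 2659 to 3318 CPM in USB1 mutant and 1933 to 2619 CPM in WT.

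At D16 the summed level of all members was 17813 ± 3777 CPM in USB1 mutant and 12744 ± 2269 CPM in WT (SD, n = 3 each), a ratio of 1.398. The ratio was 1.367 for H1, 1.595 for H2A, 1.179 for H2B, 1.417 for H3 and 1.398 for H4. USB1 mutant and WT libraries did not overlap for H1 and overlapped for the core classes. In bulk RNA, fewer cells of a type and less RNA per cell cannot be told apart.

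Gene by gene, 32 of the 61 members that passed the count filter at D16 were higher in USB1 mutant progenitors and 0 were lower (edgeR quasi-likelihood test, Benjamini-Hochberg adjusted p under 0.1 over all genes tested). Across all genes tested, 13.1% were called higher and 15.3% lower (28.5% in all). The members' median log2 difference was 0.59, against 0.01 over all genes. At an unadjusted p under 0.05, 35 members were higher and 2 lower, and DESeq2 called 38 higher and 1, H1-2, lower. By class, 3 of 4 H1, 9 of 14 H2A, 5 of 19 H2B, 7 of 11 H3 and 8 of 13 H4 genes were called higher. The 19 members not tested were H1-1, H1-6, H2AC1, H2AC2P, H2AC3P, H2AC5P, H2AC9P, H2AC10P, H2BC1, H2BC2P, H2BC3, H2BC16P, H2BC27P, H3C3, H3C5P, H3C9P, H4C7, H4C10P and H4C12. Of the 32, 17 were called whichever library was left out, and the count called higher ran from 18 (1 lower) without USB1 mutant replicate 1 to 38 (0 lower) without USB1 mutant replicate 3 or without WT replicate 3. The main test did not pair same-numbered libraries. With the replicate number as a block, 38 were higher and 3, H1-2, H2BC20P and H4C15, were lower.

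H3C6, an H3 gene of the 6p cluster, had the largest difference among named members. It had 254.9, 227.5 and 137.6 CPM in USB1 mutant D16 libraries, against 7.54, 17.13 and 21.45 CPM in WT D16 libraries. The lowest mutant library was thus several times the highest WT library. The log2 difference was 3.72 ± 0.34 (SE, adjusted p = 0.000154, edgeR).

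H4C1 and H3C1 lie side by side in the same cluster. H4C1 had 57.1, 59.1 and 37.6 CPM in USB1 mutant and 9.58, 16.3 and 14.3 CPM in WT D16 libraries (1.92 ± 0.22, adjusted p = 0.000488, edgeR). H3C1 had 66.6, 60.8 and 32.8 CPM in USB1 mutant and 8.86, 16.4 and 13.5 CPM in WT (2.02 ± 0.28, adjusted p = 0.00104, edgeR). In both every mutant library was above every WT library.

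The linker histone genes did not move as a block. H1-3 had 276.0, 300.5 and 222.5 CPM in USB1 mutant and 110.2, 108.9 and 127.5 CPM in WT D16 libraries (1.204 ± 0.15, adjusted p = 0.000578, edgeR). H1-4 had 893, 967 and 944 CPM in USB1 mutant and 604, 596 and 664 CPM in WT (0.59 ± 0.13, adjusted p = 0.00943, edgeR). In both genes no mutant library overlapped a WT library. H1-5 was called at 0.63 ± 0.18 (adjusted p = 0.0332, edgeR), with its lowest mutant library, 914 CPM, just above its highest WT library, 905.1 CPM. That call was lost without WT replicate 1 (adjusted p = 0.107), WT replicate 2 (0.137), USB1 mutant replicate 1 (0.117) or USB1 mutant replicate 2 (0.126). H1-2 had 447.8, 537.1 and 446.3 CPM in USB1 mutant and 512.4, 595.5 and 828.1 CPM in WT D16 libraries and was not called (-0.44, adjusted p = 0.116, edgeR). It was lower in each same-numbered pair, and it was called lower with the replicate block (-0.41, adjusted p = 0.0585), by DESeq2 (adjusted p = 0.0638), with no count filter (0.088) and without WT replicate 1 (0.0623). As a share of H1 counts, H1-2 was 16.7% in USB1 mutant and 29.9% in WT at D16.

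Among core histone genes, H4C9 had 184.4, 193.3 and 112.7 CPM in USB1 mutant and 68.2, 72.7 and 82.7 CPM in WT (1.13 ± 0.19, adjusted p = 0.00286, edgeR). H2BC6 had 183.3, 209.8 and 140.4 CPM in USB1 mutant and 80.6, 101.8 and 70.4 CPM in WT (1.08 ± 0.18, adjusted p = 0.00262, edgeR), and its exons overlap an antisense gene. H2AC17 had 456.8, 488.4 and 322.0 CPM in USB1 mutant and 205.0, 264.7 and 295.2 CPM in WT (0.73 ± 0.19, adjusted p = 0.0207, edgeR), and is uncertain as a single gene, since 69.2% of its stretches are shared with H3C12. None of these groups overlapped, and mutant replicate 3 was the lowest mutant library in each. H4C6 and H4C4 were also higher, by 1.07 and 1.10 ± 0.23 (adjusted p = 0.00702 and 0.00733, edgeR). The most abundant genes were not all among those called. H4C11 had 1039, 1267 and 755 CPM in USB1 mutant and 610, 771 and 1004 CPM in WT, H3C2 had 928, 824 and 514 CPM in USB1 mutant and 453, 601 and 602 CPM in WT, and neither passed. H2BC12 had 454.0, 547.3 and 408.6 CPM in USB1 mutant against 423.5, 551.4 and 654.8 CPM in WT, and these overlapped.

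**Figure D2:**
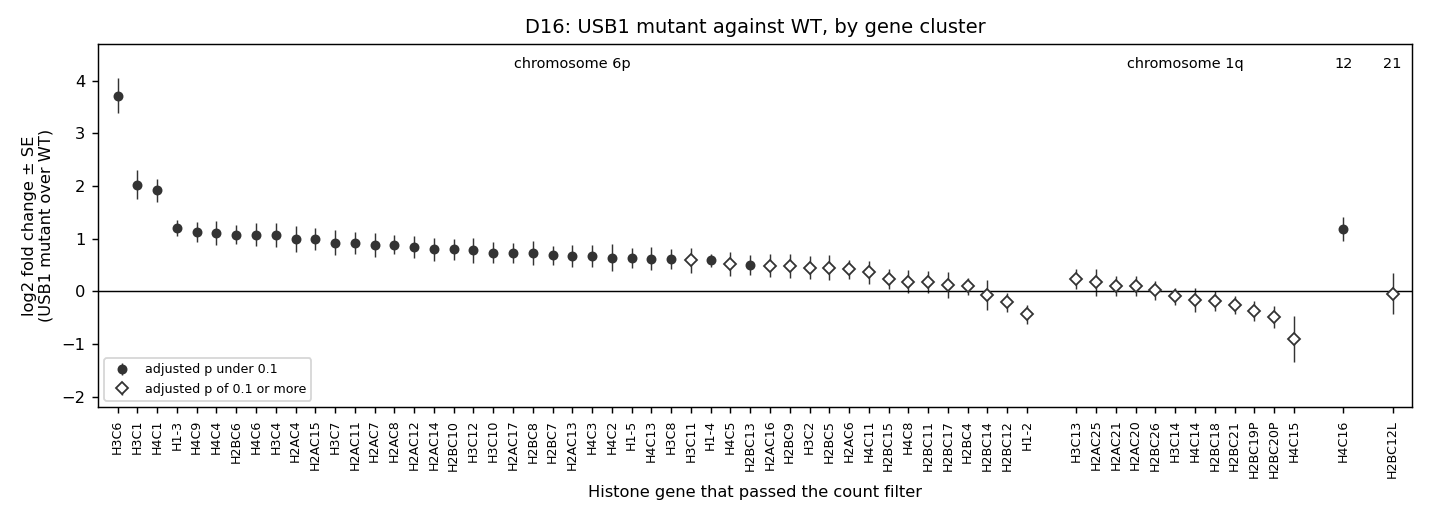
Log2 difference, USB1 mutant over WT at D16, for each member that passed the filter, with its SE, grouped by chromosome and ordered by value, filled where the adjusted p was under 0.1. H3C6 stands highest at 3.72, and the 12 members on 1q are all open.

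The calls higher lay mostly on chromosome 6p. Of 47 tested members on 6p, 31 were higher at D16, with a median log2 difference of 0.67, and the other was H4C16 on chromosome 12. H4C16 averaged 50.5 ± 12.7 CPM in USB1 mutant and 22.0 ± 5.73 CPM in WT (SD, n = 3 each), a log2 difference of 1.19 ± 0.22 (adjusted p = 0.00455, edgeR), and its libraries did not overlap. Of the 12 tested members on 1q, 0 were called in either direction, with a median of -0.13. At an unadjusted p under 0.05, 0 of them were higher and 1 lower, and DESeq2 called 0. With the replicate block, 2 of the 12 were called lower, H2BC20P (-0.48, adjusted p = 0.0285) and H4C15 (-0.75, adjusted p = 0.0963), and none higher. The same genes were called lower without WT replicate 1, H2BC20P was without USB1 mutant replicate 2, and H2AC25 and H3C13 were called higher without WT replicate 3 (0.55 and 0.44, adjusted p = 0.0574 and 0.0778, edgeR). H3C14, the H3 gene of 1q shown above, had 996.7, 1174 and 953.5 CPM in USB1 mutant and 947.1, 1054 and 1327 CPM in WT.

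Other genes of 1q moved too. At D16, 26 of the other 674 tested genes on 1q were higher and 352 lower in USB1 mutant libraries, with a median of -0.50. Of all genes tested at that day, 13.1% were called higher and 15.3% lower. Among the other 16 tested genes inside the 6p histone span, 5 were higher and 2 lower, with a median of 0.23. At D0 the other 1q genes gave 3 higher and 52 lower of 649 (median -0.20), against 1.07% and 1.87% of all genes. At D30 they gave 46 higher and 187 lower of 666 (median -0.30), against 10.8% and 9.75% of all genes. The part of this shift in the members' values was not tested.

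**Figure D3:**
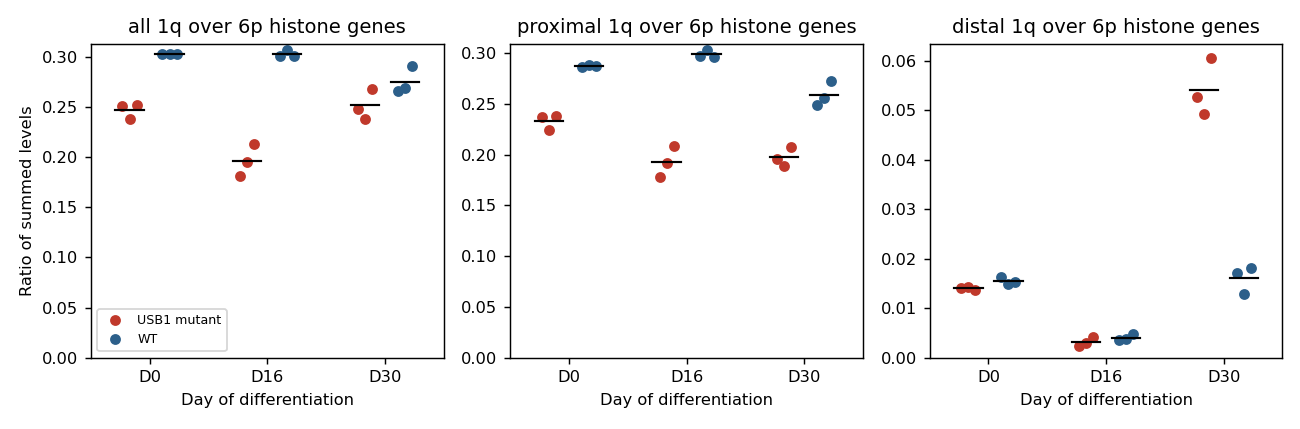
Summed CPM of the 1q members divided by that of the 6p members in each library, by day. At D16 the USB1 mutant libraries lie at 0.181 to 0.213 and the WT libraries at 0.301 to 0.306.

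The summed level of 1q members over that of 6p members was 0.181, 0.195 and 0.213 in USB1 mutant D16 libraries, against 0.301, 0.306 and 0.301 in WT D16 libraries. At D0 it was 0.251, 0.238 and 0.252 in USB1 mutant and 0.302, 0.303 and 0.303 in WT. At D30 it was 0.248, 0.238 and 0.268 in USB1 mutant and 0.266, 0.268 and 0.291 in WT, where the genotypes overlapped. At D0 and D16 every mutant library was below every WT library, and 3 against 3 libraries cannot give an exact permutation p under 0.10. Split by place, the proximal 1q group stayed below WT at D30, at 0.196, 0.189 and 0.207 in USB1 mutant and 0.249, 0.255 and 0.273 in WT. The distal group was above it, at 0.0526, 0.0493 and 0.0605 in USB1 mutant and 0.0171, 0.0130 and 0.0180 in WT.

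In hESCs few members differed. Of 63 members tested at D0, 5 were higher in USB1 mutant and 0 lower, where 1.07% of all genes were called higher and 1.87% lower (2.93% in all). The members' median log2 difference was 0.17, against 0.00 over all genes. At an unadjusted p under 0.05, 12 were higher and 0 lower, and DESeq2 called 6 higher and 0 lower. H4C6 was the member that was called without each library in turn, with 149.7, 174.3 and 200.04 CPM in USB1 mutant and 105.3, 71.4 and 88.1 CPM in WT D0 libraries (0.99 ± 0.15, adjusted p = 0.0157, edgeR). H3C6 had 124.7, 124.1 and 138.7 CPM in USB1 mutant and 90.1, 72.1 and 80.4 CPM in WT, groups that did not overlap (0.68 ± 0.11, adjusted p = 0.0152, edgeR), and was lost without USB1 mutant replicate 3 (adjusted p = 0.108). H1-3 had 129.8, 152.2 and 144.7 CPM in USB1 mutant and 107.4, 75.8 and 78.9 CPM in WT (0.70 ± 0.14, adjusted p = 0.0444, edgeR), and was lost without WT replicate 2 or 3 or USB1 mutant replicate 2 or 3 (adjusted p of 0.116 to 0.209). H1-1 and H2BC27P were called at 6.31 ± 1.48 and 1.64 CPM in USB1 mutant against 1.60 ± 0.84 and 0.45 CPM in WT, and rest on few counts. The count was 1 without USB1 mutant replicate 3, 2 without USB1 mutant replicate 2 or WT replicate 2, 3 without WT replicate 3 and 8 without WT replicate 1. With the replicate number as a block, 9 members were called higher.

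In mature blood cells the directions were mixed. Of 60 members tested at D30, 5 were higher and 7 lower in USB1 mutant, against 10.8% and 9.75% of all genes tested (20.6% in all). The members' median was -0.23. H2AC25, an H2A gene of the distal 1q group, had 124.1, 90.8 and 111.5 CPM in USB1 mutant and 31.7, 28.9 and 36.8 CPM in WT D30 libraries (1.75 ± 0.17, adjusted p = 0.0016, edgeR). Its neighbour H2BC26 had 21.1, 15.4 and 16.9 CPM in USB1 mutant and 12.2, 9.48 and 8.64 CPM in WT (0.83 ± 0.22, adjusted p = 0.0422, edgeR), a call lost without WT replicate 2 (0.138) or 3 (0.147). H2BC14 on 6p, low at this day, had 10.1, 5.49 and 9.35 CPM in USB1 mutant and 3.01, 3.14 and 2.74 CPM in WT (1.47 ± 0.31, adjusted p = 0.0201, edgeR). In these 3 genes no mutant library overlapped a WT library, and H2AC25 and H2BC14 were called without each library in turn. H4C6 and H3C6 were also higher, by 0.67 ± 0.19 and 0.75 ± 0.26 (adjusted p = 0.0505 and 0.0983, edgeR), but H4C6 was lost without any WT library or USB1 mutant replicate 1 (adjusted p of 0.103 to 0.15) and H3C6 without any library other than WT replicate 2 (0.102 to 0.221).

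Of the members that were lower at D30, 5 lie on 1q, where more of the other genes were also called lower than higher. The members called in either direction at D30 were near the 20.6% of all genes tested, of which 9.75% were called lower. H2AC20, an abundant H2A gene, had 62.7, 58.9 and 73.0 CPM in USB1 mutant and 86.7, 104.5 and 108.7 CPM in WT (-0.63 ± 0.15, adjusted p = 0.0301, edgeR). H2BC21 had 41.8, 31.6 and 43.1 CPM in USB1 mutant and 58.0, 56.4 and 60.2 CPM in WT (-0.59 ± 0.16, adjusted p = 0.0445, edgeR). The genotypes did not overlap in either gene, and both calls were lost without WT replicate 3 (adjusted p = 0.117 and 0.143) or WT replicate 2 (0.105 and 0.115), and that of H2BC21 also without WT replicate 1 (0.11). H3C14 and H4C14 were also lower (-0.57 ± 0.20 and -0.64 ± 0.21, adjusted p = 0.0955 and 0.0799, edgeR). H4C15 rests on WT replicate 1 at 20.9 CPM, against 3.19 and 3.76 CPM in the other WT libraries, was lost without it (adjusted p = 0.263), and shares its stretches with H4C14. Off 1q, H1-2 had 194.4, 161.7 and 120.5 CPM in USB1 mutant and 226.3, 227.8 and 231.2 CPM in WT (-0.52 ± 0.18, adjusted p = 0.0955, edgeR), and H3C8 was lower by 0.56 ± 0.19 on the log2 scale (adjusted p = 0.0916, edgeR). The calls of H3C14, H4C14, H1-2 and H3C8 were each lost without any WT library, at adjusted p of 0.107 to 0.282. The count of called members was 3 without WT replicate 3 and 4 without WT replicate 1 or WT replicate 2, against 12 with every library. Without all genes of 1q it was 4, a setting chosen after seeing the data that takes out the called 1q members themselves. Only H3C6 among the calls missing there lies off 1q.

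**Figure D4:**
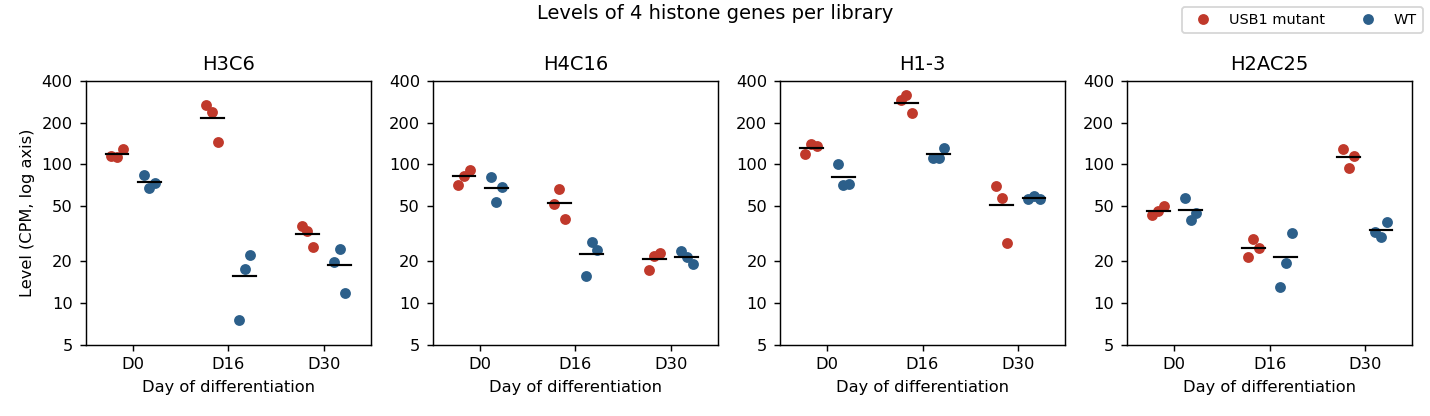
CPM of 4 members in every library by day, on a log scale, USB1 mutant left of WT. H3C6 separates the genotypes at D16 and H2AC25 at D30.

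Along the differentiation most members rose to D16 and fell to D30 in both genotypes. Of 64 members in the fit over 18 libraries, 56 were higher and 5 lower at D16 than at D0 in USB1 mutant cells, where 36.9% of all genes were higher and 36% lower (72.9% in all). In WT cells 46 were higher and 7 lower, where 37% and 39.3% of all genes were (76.3% in all). The members' median log2 change was 1.29 in USB1 mutant and 0.86 in WT. At D30 against D16, 2 were higher and 58 lower in USB1 mutant cells, against 34.7% and 35.1% of all genes (69.8% in all), with a median of -2.66. In WT cells 2 were higher and 54 lower, against 31.6% and 35.1% of all genes (66.7% in all), with a median of -1.90.

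H1-4 rose and fell in both genotypes, at 280 ± 14.8 CPM at D0, 982.1 ± 41.1 CPM at D16 and 247.9 ± 36.2 CPM at D30 in USB1 mutant, and 239.7 ± 26.3, 635.7 ± 45.6 and 319.4 ± 37.9 CPM in WT. H2BC12 had 161.1 ± 5.14, 493.7 ± 74.2 and 131.2 ± 29.4 CPM in USB1 mutant and 140.7 ± 21.03, 556.9 ± 127 and 124.8 ± 12.8 CPM in WT. Some members ran against this course. H3C6 fell at D16 in WT cells, to 7.58, 17.6 and 22.2 CPM at D16 against 84.0, 67.3 and 73.5 CPM at D0 (-2.22 ± 0.30, adjusted p = 3.29e-06, edgeR). In USB1 mutant cells it had 267.3, 239.1 and 144.8 CPM at D16 against 114.9, 113.6 and 130.4 CPM at D0. H4C16 was lower at D16 than at D0 in both, by 0.63 in USB1 mutant and 1.58 in WT on the log2 scale. H2AC25 was lower at D16 than at D0 and higher at D30 than at D16 in both genotypes, at 46.4 ± 3.42, 25.1 ± 3.90 and 112.9 ± 17.2 CPM at D0, D16 and D30 in USB1 mutant and 47.1 ± 9.05, 21.7 ± 9.74 and 33.7 ± 4.33 CPM in WT (SD, n = 3 each).

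**Figure D5:**
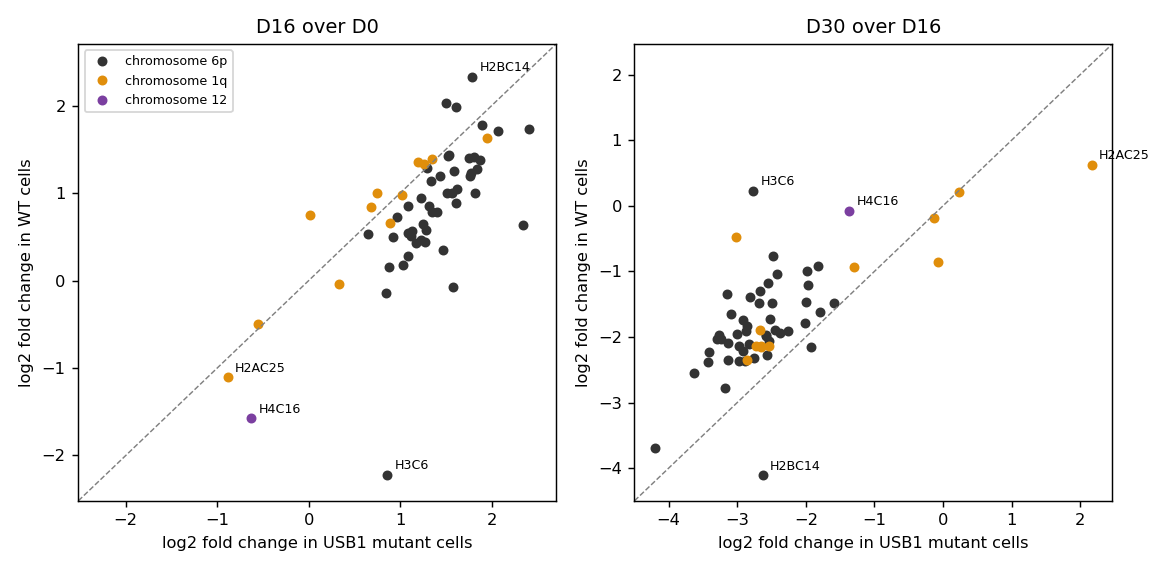
Log2 change between days in USB1 mutant against that in WT for the 60 members that averaged at least 5 CPM over the 18 libraries, D16 over D0 and D30 over D16. H3C6 lies furthest from the dashed line of equal change in D16 over D0, at 0.86 in USB1 mutant and -2.22 in WT.

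Whether the genotypes differed in these changes was tested as an interaction in that fit. From D0 to D16 the log2 change was more positive in USB1 mutant than in WT for 6 members and more negative for 0, where 3.86% of all genes were called more positive and 3.75% more negative (7.61% in all). At an unadjusted p under 0.05 there were 18 and 0, and DESeq2 called 7 and 0. The difference in log2 change was 3.08 ± 0.41 for H3C6 (adjusted p = 0.000844, edgeR), 1.70 ± 0.41 for H4C1, 1.66 ± 0.40 for H3C1, 1.11 ± 0.32 for H4C4, 0.99 ± 0.31 for H4C9 and 0.95 ± 0.29 for H4C16. H3C6, H3C1 and H4C1 were called whichever library was left out. The others were lost in most such fits, in which the count ran from 3, reached without USB1 mutant D16 replicate 1 among others, to 14 without USB1 mutant D16 replicate 3. From D16 to D30 it was more positive for 3 and more negative for 28, where 10.3% and 10.2% of all genes were (20.5% in all). H3C6 (-3.00 ± 0.43, adjusted p = 0.000291, edgeR), H1-4 (-0.99 ± 0.18, adjusted p = 0.00191) and H2AC8 (-1.197 ± 0.25, adjusted p = 0.00455) had the smallest p among the more negative ones, and H2AC25 (1.54 ± 0.33), H2BC14 (1.48 ± 0.43) and H2BC26 (0.78 ± 0.28) were the 3 more positive ones. The 2 interactions share the D16 libraries, as do the genotype comparisons behind them.

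The genes that make, cut and destroy histone mRNA were mostly not called at D16. SLBP had 78.7, 72.6 and 88.9 CPM in USB1 mutant and 53.5, 52.1 and 72.4 CPM in WT D16 libraries (0.43 ± 0.15, adjusted p = 0.072, edgeR), with the lowest mutant library just above the highest WT library. That call was lost without any library other than WT replicate 3, at adjusted p of 0.103 to 0.249. NPAT was not called at any day, at log2 differences of 0.09, 0.03 and -0.15 at D0, D16 and D30. Of 20 tested genes of histone gene transcription and pre-mRNA processing, 3 were higher and 0 lower at D16 (median 0.03), near the 13.1% called higher among all genes, namely SLBP and the cyclins CCNE1 (0.67) and CCNE2 (0.59). Of 14 genes of histone mRNA decay 1 was higher and 2 were lower, against 13.1% and 15.3% of all genes. LSM4 was higher (0.51) and XRN1 (-0.46) and TUT7 (-0.40), an exonuclease and a uridylyl transferase, were lower. At D30, 10.8% of all genes were called higher and 9.75% lower (20.6% in all). At that day LSM10, a U7 snRNP protein, was higher by 1.09 ± 0.22, and 0 decay genes were called.

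Other chromatin genes moved in places. Among histone variants made outside S phase, MACROH2A2 was higher at D16 by 1.74 ± 0.24 (adjusted p = 0.000977, edgeR) and H2AJ by 0.67. Of 18 histone chaperones and carriers, 4 were higher and 0 lower at D16, among them NASP (0.49), IPO4 (0.69) and SSRP1 (0.49), where 28.5% of all genes were called. At D30 the chaperone adaptor DAXX was higher (1.45) and ASF1B (-1.06) and HAT1 (-0.70) lower, and H2AX (0.91) was higher and H2AZ1 (-0.46) lower.

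For genes of DNA replication and mitosis the counts stand against 13.1% of all genes called higher and 15.3% lower at D16, and 10.8% and 9.75% at D30. At D16, 5 of 25 DNA replication genes were higher and 0 lower (median 0.27), with GINS1 at 0.65, UHRF1 at 0.64 and MCM2 at 0.55, and 5 of 11 mitosis genes were higher and 0 lower (median 0.42). At D30, 0 DNA replication genes were higher and 4 lower (median -0.30), and 0 mitosis genes were higher and 6 lower (median -0.65). The members' sum over that of the DNA replication list was 6.07, 7.02 and 3.86 in USB1 mutant D16 libraries, against 4.48, 5.90 and 5.03 in WT D16 libraries, and these overlapped.

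Cell type marker lists differed between genotypes at both later days. At D16 the summed granulocyte list was 10573 to 13687 CPM in USB1 mutant and 42146 to 61735 CPM in WT (0 of 7 genes higher, 6 lower). The erythroid list was 614 to 978 CPM in USB1 mutant and 256 to 522 CPM in WT (3 of 5 higher, 0 lower), and the megakaryocyte list 810 to 873 CPM in USB1 mutant and 575.03 to 658 CPM in WT (3 of 4 higher, 0 lower). The monocyte and macrophage list was 438 to 524 CPM in USB1 mutant and 234 to 422 CPM in WT (3 of 5 higher, 1 lower), and the progenitor list 1711 to 1862 CPM in USB1 mutant and 1872 to 2169 CPM in WT (1 of 5 higher, 2 lower). KIT, the stem cell factor receptor on that list, averaged 267.7 CPM in USB1 mutant and 84.95 CPM in WT at D16.

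At D30 the erythroid list was 16848 to 19839 CPM in USB1 mutant and 4871 to 6984 CPM in WT (4 of 5 higher, 0 lower). The monocyte and macrophage list was 1307 to 2112 CPM in USB1 mutant and 2876 to 3400 CPM in WT (0 of 5 higher, 3 lower). KIT averaged 439.2 CPM in USB1 mutant and 25.95 CPM in WT, and the rest of the progenitor list did not follow it. PTPRC averaged 371.4 CPM in USB1 mutant and 643.3 CPM in WT, and SPN 491.4 and 682.1 CPM. CD34 averaged 13.06 CPM in USB1 mutant and 14.26 CPM in WT, and RUNX1 209.3 and 211 CPM. The summed granulocyte list overlapped, at 2712 to 6572 CPM in USB1 mutant and 1682 to 6575 CPM in WT, but its genes did not move together. MPO averaged 42.81 CPM in USB1 mutant and 280.4 CPM in WT, ELANE 0.172 and 7.47 CPM, and PRTN3 6.73 and 32.62 CPM. AZU1 averaged 12.52 CPM in USB1 mutant and 22.32 CPM in WT, and EPX 1257 and 1808 CPM. PRG2 averaged 2367 CPM in USB1 mutant and 2008 CPM in WT, and CLC 892.3 and 667.2 CPM. The part of these lists in the members' differences was not tested.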

How the data were processed

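The deposited tables hold, for each gene and library, the expected counts that the authors estimated with Salmon 0.13.1 against the Ensembl GRCh38 version 99 cDNA, after Trimmomatic 0.36, the TPM the authors derived from them, and an effective length in bases. Libraries were rRNA-depleted, strand-specific and paired-end. Expected counts were rounded, and symbols were matched to 35051 of 35168 identifiers, the rest holding 0.238% of counts. Genotypes were compared within a day, and days and interactions in a fit over the 18 libraries, with edgeR 4.0.16 (R 4.3.3): filterByExpr, TMM scaling and the quasi-likelihood test, Benjamini-Hochberg adjusted over all genes tested and called under 0.1. CPM in genotype comparisons were scaled within the day, and over 18 libraries between days and for sums. Common biological coefficients of variation were 0.1301 at D0, 0.1695 at D16 and 0.2225 at D30. DESeq2 1.42.0, other scalings and filters, transcript lengths as offsets, a replicate block and leaving out each library were the alternatives. The test was checked on simulated counts with the same spread on each day, lower than that found at D30. Of genes changed by 1 on the log2 scale, 91%, 88% and 85% were recovered at D0, D16 and D30. Of the genes called, 4.975%, 12.96% and 11.06% were false, so at D16 and D30 the share was above the threshold of 0.1. The named members were the 3 most abundant of each class by TPM and up to 6 called members in a direction with the smallest adjusted p and at least 5 CPM. The members and lists were chosen with earlier results of these data known. Same-numbered libraries deviated together at D0 (r of 0.292, 0.141 and 0.253) and D16 (0.114, 0.206 and 0.359), not at D30 (0.142, -0.0545 and 0.287). The D0 and D16 numbers were therefore taken to pair the libraries, which correlations this low do not establish by themselves. The main genotype tests, and their p-values, did not use that pairing, and the fits with the replicate block did. No replicate pair agreed within sampling noise (lowest chi-square per degree of freedom 3.467). A result in the list of histone variants is not reported here.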

Additional observations from a re-analysis of the deposited data

Results flagged for a closer look

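The test of a difference between the genotypes' changes over time called 6 members from D0 to D16, where 7.61% of all genes were called. It called 31 members from D16 to D30, where 20.5% of all genes were. From D0 to D16 the log2 change was more positive in USB1 mutant than in WT by 3.08 for H3C6, 1.70 for H4C1, 1.66 for H3C1, 1.11 for H4C4, 0.99 for H4C9 and 0.95 for H4C16. From D16 to D30 the USB1 mutant minus WT difference in change was -3.00 for H3C6, -1.37 for H1-3, -1.37 for H4C9, -1.21 for H3C8, -1.197 for H2AC8 and -0.99 for H1-4. It was 1.54 for H2AC25, 1.48 for H2BC14 and 0.78 for H2BC26. Cell type marker lists also differed between genotypes at D16 and D30 and their part in these differences was not tested.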

How the results depend on the processing

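Of 5529 values of named genes under the alternatives, 5204 stayed on their side of the threshold, 294 lost it and 31 gained it. Where the main or the alternative fit called the gene, 0 changed direction. Changes of direction where neither fit called the gene were not counted. Scaling moved the median of all genes by under 0.1 on the log2 scale. Leaving out single libraries moved the count of members called in either direction from 5 to between 1 and 8 at D0, from 32 to between 19 and 38 at D16, from 12 to between 3 and 12 at D30, and from 6 to between 3 and 14 in the interaction of D16 and D0. At D0 the count was 3 with a minimum of 5 CPM in 3 libraries, 3 with transcript lengths as offsets and 1 in the fit over 18 libraries. At an adjusted p under 0.05 it was 5 at D30 and 3 in that interaction. Without genes of 1q, chosen after seeing the data, it was 4 at D30, where fewer genes were tested and the called 1q members were themselves taken out. The cause of the other moves was not tested. When the libraries were blocked by replicate, the counts in either direction were 9 at D0, 41 at D16 (38 higher, 3 lower) and 12 at D30, and the call of H4C9 in the interaction was lost (adjusted p = 0.102). At D16 the block brought in, among others, H1-2 (-0.41, adjusted p = 0.0585) and H3C11 (0.54, adjusted p = 0.0466), by edgeR. The others were H2AC6, H2AC16, H2BC5, H2BC9, H2BC20P, H4C5 and H4C15. Members that share most of their sequence are uncertain as single genes, whatever the depth.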
